A study of Homo sapiens with 9 samples.

Results

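The 3 single HAP1 cells sequenced in this series were each described at gene level against the other 2. HAP1 cells are human, adherent and nearly haploid, and descend from a chronic myeloid leukaemia line that carries the BCR-ABL1 fusion. All cells were wild type and untreated. RNA was isolated with NAxtra magnetic nanoparticles, which bind nucleic acid in isopropanol, from sorted samples of 1, 10, 100 or 1000 cells, and all libraries were made with the SMART-Seq Stranded kit. The series holds 9 samples, of which 3 are single cells, named Single Cell Rep 1 to Rep 3. The other 6, a pair each of 10, 100 and 1000 cells, are used below only as a background range. The labels call the samples biological replicates without saying whether they came from separate cultures. Of the 26485 gene models, 11087 reached 10 CPM (counts per 1000000, after scaling for composition) in at least 1 single cell and were taken as members. Of these, 8353 reached that level in all 3 cells, 1455 in exactly 2 and 1279 in exactly 1. Because this choice used the single cells themselves, the main counts are also given over 9759 genes whose mean in the 6 larger samples was 10 CPM or more, 9685 of which were members. The members nearest the limit were SEC14L1P1 and KIAA1683, both with a highest value of 10.0045 CPM, and the nearest genes outside it were ARMC4 and MIR4787, both at 9.99944 CPM.

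A gene is not transcribed at a constant rate in a single cell. Many promoters switch between active and silent periods, so that RNA molecules are made in bursts and are then lost by decay. Genes with few RNA molecules per cell are most exposed to this sampling, whereas abundant RNAs of the ribosome, cytoskeleton and metabolism vary less. Dividing cells in addition differ by their position in the cell cycle, since DNA replication genes, histone genes and mitotic genes are used at different times. A lysate of many cells averages over all of these, and a lower value in it can come from fewer cells that use the gene or from less RNA per cell, which cannot be told apart.

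Each single cell is 1 library, so that no test between them is possible and no p-value or standard error is given. The counts assigned to genes were 51137806, 51581544 and 53491792 in Single Cell Rep 1 to Rep 3, and between 42842970 and 61645865 in the 6 others. At least 1 count was seen for 14478, 14290 and 13968 genes in the single cells, against 16283 to 18634 in the larger samples. In a single cell, 1 count was worth 0.0192 to 0.0196 CPM. A count of 0 was taken as 3 counts, or 0.0575 to 0.0588 CPM, in each fold given as at least. Exact Poisson intervals below are at 95% and cover counting error only, since reads amplified by PCR without molecular identifiers are not independent molecules. For 0 counts these intervals reached somewhat further, to 0.0712 CPM in Rep 1 and 0.0723 CPM in Rep 2. How much of a difference arose in the living cell, in the isolation or in the amplification of a few molecules was not tested.

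Between any pair of single cells, many more genes were far apart than between the 2 libraries of a larger sample. Over the 9759 genes chosen on the larger samples, a difference of at least 2 on the log2 CPM scale was seen for 284 genes (2.91%) between Single Cell Rep 1 and Rep 2. It was seen for 432 genes (4.43%) between Rep 1 and Rep 3 and for 464 (4.75%) between Rep 2 and Rep 3. The same difference was reached by 1 gene (0.0102%) between the 10-cell libraries, 3 genes (0.0307%) between the 100-cell libraries and 1 gene (0.0102%) between the 1000-cell libraries. The median absolute difference on that scale was 0.43, 0.47 and 0.46 for the 3 pairs of single cells. It was 0.16, 0.15 and 0.06 for the pairs of 10, 100 and 1000 cells. Rep 3 was the lower of the pair at 288 of the 432 genes that separated it from Rep 1 and at 287 of the 464 that separated it from Rep 2.

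The difference between cells became smaller as the level of the gene increased. Among the 1860 genes at a background mean of 10 to 20 CPM, the median range over the 3 cells, which is the highest minus the lowest log2 CPM, was 1.32. It was 0.95 for 3388 genes at 20 to 50 CPM, 0.66 for 2162 genes at 50 to 100 CPM, 0.46 for 2119 genes at 100 to 500 CPM and 0.28 for 230 genes at 500 CPM or more. Over all 9759 genes the median range was 0.77. The same order by level was present within each pair of larger samples, at smaller values.

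**Figure D1:**
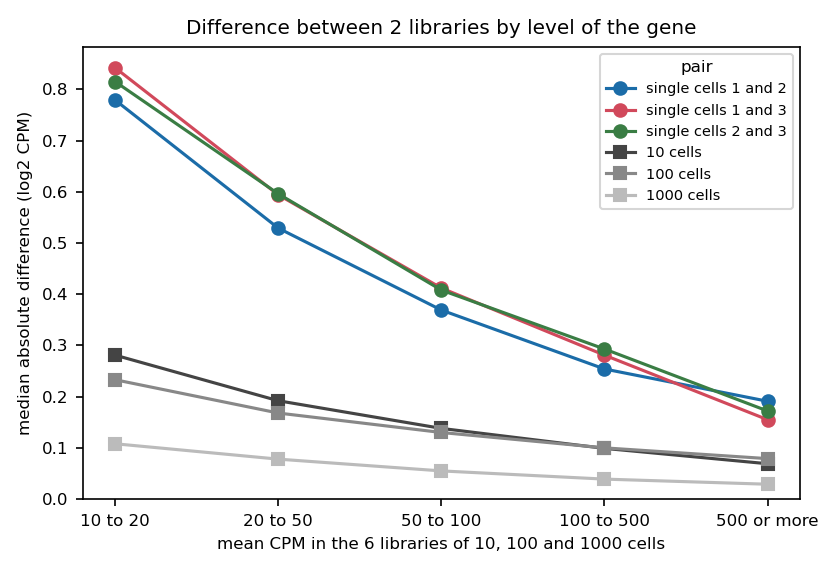
Median absolute difference in log2 CPM between 2 libraries (vertical axis) for genes grouped by their mean CPM in the 6 libraries of 10, 100 and 1000 cells (horizontal axis). The 3 pairs of single cells (circles) lie above the pairs of 10, 100 and 1000 cells (squares) at every level and decline from 0.78 to 0.84 at 10 to 20 CPM to 0.15 to 0.19 at 500 CPM or more.

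A gene was called apart in a cell when it differed from each of the other 2 cells by at least 2 on the log2 scale in the same direction. In Single Cell Rep 1, 110 members (0.992%) were apart and higher and 167 (1.51%) were apart and lower. In Rep 2, 96 members (0.866%) were higher and 261 (2.35%) were lower. In Rep 3, 143 members (1.29%) were higher and 353 (3.18%) were lower. The members entered through a high value in at least 1 cell, so the same counts follow for the genes chosen on the larger samples. There, 25 genes (0.256%) were higher and 61 (0.625%) lower in Rep 1, 20 (0.205%) higher and 82 (0.84%) lower in Rep 2, and 14 (0.143%) higher and 172 (1.76%) lower in Rep 3. All 3 cells thus had more genes apart on the low than on the high side in both gene sets, and Rep 3 had the most on the low side. This order depended on the filter, since over every gene with a count in a single cell 918 were higher and 489 lower in Rep 1 and 855 higher and 672 lower in Rep 2, against 730 and 939 in Rep 3.

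In total, 1005 members, and 363 of the 9759 genes, were apart in at least 1 cell. A single cell above all 6 larger samples and another below all 6 were seen for 866 (86.2%) of the former and 273 (75.2%) of the latter. A choice of genes far apart favours this, and it was also seen for 5191 (46.8%) of all members and 4296 (44%) of all 9759 genes. Of the 353 members lower in Rep 3, 351 lay below the background range, and in 137 of them both other cells lay above it. Of the 172 genes lower in Rep 3 among the 9759, all 172 lay below it, and in 52 both other cells lay above it. No gene at a background mean of 100 CPM or more was apart in any cell.

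The genes furthest above the other cells in Single Cell Rep 1 were absent or nearly so from at least 1 other cell. FJX1 (chr11:35618187-35620873 in hg38, as are all gene coordinates below), which encodes a relative of the Drosophila kinase Four-jointed, was at 22.7 CPM in Rep 1 (Poisson interval 21.5 to 24.1) and at 0 counts in Rep 2 and Rep 3. The 6 larger samples ranged from 5.56 to 7.92 CPM, with a median of 6.27. Rep 1 was thus at least 386-fold higher than either other cell and above the whole background range. MISP (chr19:751146-764318), an actin-binding protein that positions the mitotic spindle, was at 18.6 CPM in Rep 1, at 0 counts in both other cells and at no more than 0.399 CPM in the background. PXDN, the peroxidase that cross-links collagen IV, was at 14.8 CPM in Rep 1, at 0 counts in both others and at no more than 0.902 CPM in the background. LAMA2, the laminin alpha 2 chain of basement membranes, was at 41.5, 0 and 2.11 CPM in Rep 1, Rep 2 and Rep 3, and at 1.18 to 5.36 CPM in the background. In all 4 genes the value of Rep 1 exceeded that of all 6 larger samples.

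The remaining genes of this group were ZNF792, CHMP1B2P, PARVG, DNAL4, CSPG4 and HOXC5. The adhesion protein PARVG was at 13.8 CPM in Rep 1 and at 0 counts in the others. The surface proteoglycan CSPG4 was at 13.4, 0 and 0.0383 CPM, the last being 2 counts. HOXC5 (chr12:54016852-54035360), a homeobox transcription factor, was at 12.5 CPM in Rep 1 and at 0 counts in both others. It shares exons with HOXC4 and HOXC6, and reads that overlap several genes were not counted, so its level is uncertain.

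The genes lowest in Rep 1 were present in both other cells at or above the bulk level. NPR3 (chr5:32710637-32791724), the clearance receptor for natriuretic peptides, was at 0.0966, 23.7 and 36.6 CPM in Rep 1, Rep 2 and Rep 3, with 6.88 to 14.8 CPM in the background and a median of 12.1. The 5 counts in Rep 1 gave a Poisson interval of 0.0314 to 0.225 CPM, and Rep 1 was 245-fold below the nearer cell. C3orf70 was at 0 counts, 16 and 24.1 CPM, against 2.85 to 5.68 CPM in the background. ERBB4, a receptor tyrosine kinase for neuregulins, was at 0 counts, 10.8 and 9.14 CPM, and at 3.19 to 8.90 CPM in the background. MAGI2-AS3, a long antisense RNA, was at 0.599, 22.0 and 32.0 CPM, and the background of 17.7 to 22.5 CPM lay within the range of the cells. GLYCTK, IGIP, BTBD11, ASTE1, TAS2R13 and STK33 completed the group. Each of the 10 was below all 6 larger samples in Rep 1.

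Of the genes furthest above the other cells in Single Cell Rep 2, CGB1 and BEST1 were also at 1.5 CPM or less in every larger sample. CGB1, a gene of the chorionic gonadotropin beta family, was at 0.116, 13 and 0 CPM, with at most 0.135 CPM in the background. Its near-identical copies make its own level uncertain. GJB2, which encodes the gap junction protein connexin 26, was at 12.1 CPM in Rep 2, at 0 counts in the others and at 1.78 to 4.81 CPM in the background. BEST1, a chloride channel, was at 0, 19.6 and 0.0383 CPM, and at 0 to 1.5 CPM in the background. CCDC168 (chr13:102729367-102759072) was at 0.116, 25.8 and 0.115 CPM, 223-fold above the nearer cell, with 2.77 to 12.1 CPM in the background. TOB2P1, GCNT4, FGF12, CCDC8 and EEPD1 were also in this group.

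The lowest genes of Rep 2 differed more in size. SLC12A3 (chr16:56865207-56915850), the sodium-chloride cotransporter known from the kidney, was at 45.1, 0.137 and 139 CPM. Rep 2, at 7 counts (0.0552 to 0.283 CPM), was 328-fold below Rep 1, and the background ran from 4.28 to 36.8 CPM with a median of 23.1. TKTL1, a relative of the pentose phosphate enzyme transketolase, was at 51.8, 0.0196 and 17.3 CPM. Its background of 0 to 3.32 CPM held the value of Rep 2, so that Rep 1 and Rep 3 were the cells outside the bulk range. CHFR, a ubiquitin ligase of the mitotic entry checkpoint, was at 16.2, 0.0196 and 26.6 CPM, against 2.25 to 9.41 CPM. MYO1D, an unconventional myosin, was at 15.2, 0.0196 and 37.7 CPM, against 6.93 to 11.5 CPM. POTEE was at 49.96, 1.14 and 75.3 CPM and the related POTEF at 16.5, 0.235 and 63.2 CPM, but the 2 genes are near-identical and may exchange reads. The others were ZNF320, ZNF728, LOC100506124, CECR7 and ADAMTSL5.

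In Single Cell Rep 3, DHRS2 (chr14:23636364-23645639), a short-chain dehydrogenase, had the largest separation of any member. It was at 81.8 CPM in Rep 3 (79.3 to 84.2) and at 0 counts in both others, at least 1410-fold apart, while the background ranged from 0 to 3.8 CPM. LIN28A (chr1:26410778-26429728), an RNA-binding protein that blocks maturation of the let-7 microRNAs, was at 0.0386, 0.216 and 45.2 CPM. All 6 larger samples held it at 21.6 to 38.1 CPM, so that Rep 1 and Rep 2, with 2 and 11 counts, were below every bulk sample and Rep 3 was above every one. PDE6B, a subunit of the phosphodiesterase of rod photoreceptors, was at 0.0773, 0.118 and 29.5 CPM, against 1.64 to 5.62 CPM. OLFML3, LRRC4B, DUSP23, PCDHA4, ZSWIM5, REPS2 and CAB39L were the remaining genes.

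Of the genes lowest in Rep 3, some were above the bulk range in both other cells and some were within it. WNT5A (chr3:55465715-55487642), a ligand of non-canonical Wnt signalling, was at 24.8, 19.6 and 0.0766 CPM, with 5.50 to 10.7 CPM in the background. NR4A2, an orphan nuclear receptor, was at 16.1, 29.6 and 0.0766 CPM, against 7.90 to 10.6 CPM. Both were above the bulk range in Rep 1 and Rep 2 and below it, at 4 counts, in Rep 3. SCN9A, a voltage-gated sodium channel, was at 51.3, 37.5 and 1.59 CPM, against 37.4 to 68.9 CPM. HS6ST2, a heparan sulphate sulphotransferase, was at 17.9, 19 and 0.172 CPM, against 18.1 to 24.9 CPM. SCN9A in Rep 1 and Rep 2, and HS6ST2 in Rep 2, lay within the bulk range. ZNF624, BCAS3, NEXN, PCDH11X, DENND2A and RPS6KA2 were the others.

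**Figure D2:**
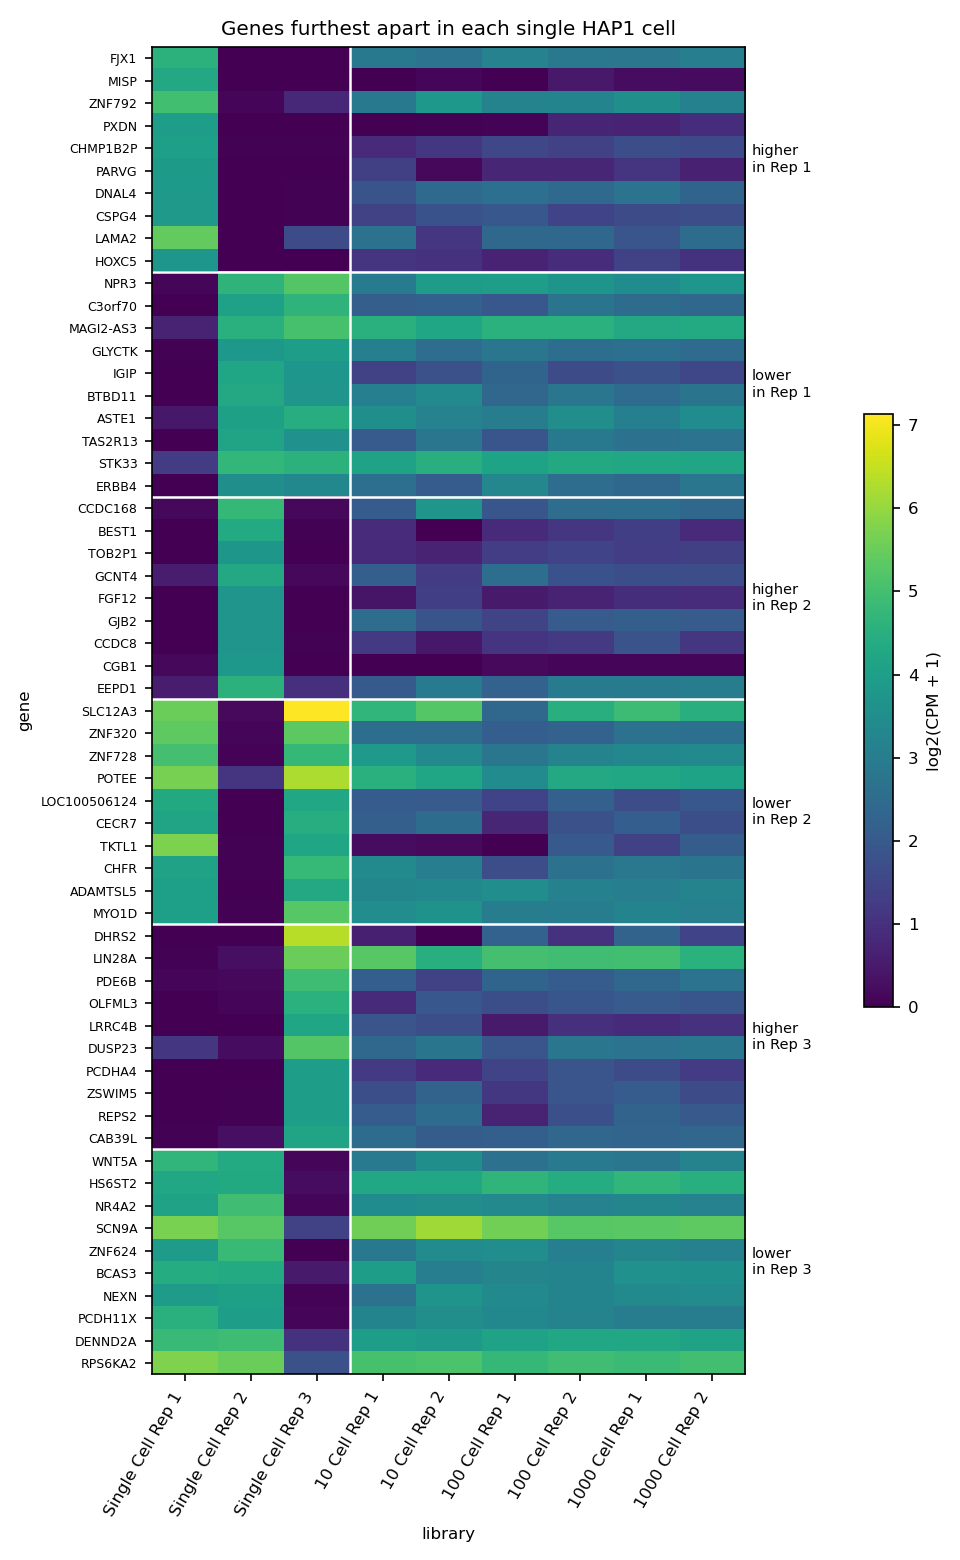
Heat map of log2(CPM + 1) for the named genes furthest apart in each direction in each single cell (rows, in 6 groups) in the 9 libraries (columns). The 3 single-cell columns alternate between high values and values near 0, while the 6 columns of larger samples hold mostly intermediate values, as for FJX1 at 22.7, 0 and 0 CPM in the cells and 5.56 to 7.92 CPM in the others.

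Genes that were on in a cell and off in another were counted as those at 10 CPM or more in at least 1 cell and under 0.1 CPM in another. There were 276 of them, or 2.49% of the members, and 156 had 0 counts in a cell. Only Rep 1 was on, with both others off, for 17 genes, only Rep 2 for 12 and only Rep 3 for 21. Conversely, 6 genes were off only in Rep 1, 17 only in Rep 2 and 20 only in Rep 3, with both others on. The genes on in 1 cell had median background means of 0.808, 1.28 and 1.09 CPM in the order of the cells. Those off in 1 cell had 5.16, 5.21 and 7.60 CPM. Of the 276, 16 were among the 9759 genes chosen on the larger samples. At 50 CPM or more in a cell, 4 genes were off in another, namely DHRS2, TKTL1, FAR2P1 and CCDC144NL-AS1, which were named after their values had been seen. FAR2P1 was at 3.82, 0.0784 and 68.0 CPM and CCDC144NL-AS1 at 3.17, 0.0196 and 52.5 CPM.

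To show what the region before the start of such genes looks like, the 250 bases upstream of the annotated start follow for the highest ranked gene of each cell and direction with a RefSeq start within 50 bases of the start of the gene model. MISP, CCDC168 and PDE6B were higher in Rep 1, Rep 2 and Rep 3, and NPR3, SLC12A3 and HS6ST2 were lower in them. The sequences are those of RefSeq in GRCh38.p14, printed 5′ to 3′ on the strand of the gene, at chr19:750862-751111 (plus strand) for MISP, chr13:102759073-102759322 (minus strand) for CCDC168, chr4:625323-625572 (plus strand) for PDE6B, chr5:32710399-32710648 (plus strand) for NPR3, chr16:56864957-56865206 (plus strand) for SLC12A3 and chrX:132961371-132961620 (minus strand) for HS6ST2. Capitals mark matches on either strand to 5 motifs, which are the TATA box (TATAAA), the CCAAT box (CCAAT), the GC box (GGGCGG), the E box (CACGTG) and the AP-1 site (TGACTCA).
MISP: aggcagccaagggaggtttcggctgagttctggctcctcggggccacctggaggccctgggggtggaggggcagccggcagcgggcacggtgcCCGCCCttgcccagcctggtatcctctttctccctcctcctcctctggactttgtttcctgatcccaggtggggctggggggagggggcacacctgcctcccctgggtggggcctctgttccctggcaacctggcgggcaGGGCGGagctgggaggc
CCDC168: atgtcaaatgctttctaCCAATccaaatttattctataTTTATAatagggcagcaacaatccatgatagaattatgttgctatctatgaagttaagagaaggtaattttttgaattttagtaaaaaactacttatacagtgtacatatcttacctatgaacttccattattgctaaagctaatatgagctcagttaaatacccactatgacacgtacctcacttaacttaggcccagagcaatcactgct
PDE6B: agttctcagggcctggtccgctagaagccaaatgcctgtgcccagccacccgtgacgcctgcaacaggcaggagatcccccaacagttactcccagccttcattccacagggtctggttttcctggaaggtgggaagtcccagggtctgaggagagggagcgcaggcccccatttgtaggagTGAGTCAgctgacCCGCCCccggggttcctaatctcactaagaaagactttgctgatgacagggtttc
NPR3: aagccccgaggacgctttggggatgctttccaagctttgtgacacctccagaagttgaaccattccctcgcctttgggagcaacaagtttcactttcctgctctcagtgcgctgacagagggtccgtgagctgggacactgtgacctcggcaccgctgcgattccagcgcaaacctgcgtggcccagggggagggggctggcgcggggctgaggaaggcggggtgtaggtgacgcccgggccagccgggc
SLC12A3: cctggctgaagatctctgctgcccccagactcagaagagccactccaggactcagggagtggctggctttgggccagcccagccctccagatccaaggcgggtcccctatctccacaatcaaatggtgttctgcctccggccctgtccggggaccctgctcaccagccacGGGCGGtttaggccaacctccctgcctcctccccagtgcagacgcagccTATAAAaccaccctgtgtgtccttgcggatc
HS6ST2: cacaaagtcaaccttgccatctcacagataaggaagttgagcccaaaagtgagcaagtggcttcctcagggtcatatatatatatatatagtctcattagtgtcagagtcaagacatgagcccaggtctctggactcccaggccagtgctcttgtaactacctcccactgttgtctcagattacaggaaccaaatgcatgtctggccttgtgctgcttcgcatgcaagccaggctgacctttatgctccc

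In these windows SLC12A3 had a TATA box 31 bases before the start and a GC box 80 bases before it. PDE6B had an AP-1 site at 68 bases and a GC box at 55 bases, MISP had GC boxes at 157 and 17 bases, and CCDC168 had a CCAAT box at 233 bases and a TATA box at 212 bases. NPR3 and HS6ST2 held none of the 5 motifs. Dinucleotides CG numbered 8 in MISP, 1 in CCDC168, 6 in PDE6B, 16 in NPR3, 7 in SLC12A3 and 1 in HS6ST2. Of all 35116 RefSeq promoters of this length, 10.7% held the TATA box letters, 32% the CCAAT box, 42.6% the GC box, 6.34% the E box and 4.2% the AP-1 site. A promoter could be matched for 8926 (80.5%) of the members. Among genes at a background mean of 10 to 20 CPM, a TATA box was found in 8.99% of 189 genes apart in a cell and in 4.54% of 1234 genes not apart. A GC box was found in 61.4% and 70.3% of them. At 20 to 50 CPM, a TATA box was found in 5.49% of 91 apart genes and 4.26% of 2674 others, and a GC box in 65.9% and 71.6%. The apart genes had slightly lower background means within each level, of 13.3 against 14.9 CPM and 24.8 against 32.7 CPM, and these shares were not tested. A match of letters is not evidence that a factor binds there.

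The S phase and G2/M lists separated the cells by many moderate differences rather than by genes apart. For each list, the median over its genes of the log2 CPM in a cell minus the mean of the other 2 cells is given, over the genes chosen on the larger samples. The 3 values of a gene sum to 0, so that a low value in a cell raises the others. For all 9759 genes this median was 0.02, 0.04 and 0.02 in Rep 1, Rep 2 and Rep 3. The highest value was in Rep 1, Rep 2 and Rep 3 for 32.5%, 32.5% and 35% of these genes, and the lowest for 33.1%, 32% and 34.9%, and the counts of each list are to be read against these shares. Of the 43 S phase genes, which act in DNA replication, 23 were highest in Rep 2 (all genes 32.5%), 14 in Rep 3 and 6 in Rep 1, with medians of −0.18, 0.32 and −0.08. Of 55 G2/M genes, which act in mitosis, 39 (70.9%) were highest in Rep 3 and 8 in each other cell, with medians of −0.20, −0.17 and 0.49. Over all genes the share highest in Rep 3 was 35%. No gene of either list was apart in any cell, against 3.72% of all 9759 genes. This share fell to 0.509% at a background mean of 50 to 100 CPM and to 0 at 100 CPM or more. The 2 lists were not compared with genes of like level.

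NDC80, a kinetochore component, was at 30.2, 47.4 and 131 CPM in Rep 1, Rep 2 and Rep 3, with 48.0 to 60.9 CPM in the background. The centromeric histone CENPA was at 35.8, 19.7 and 80.1 CPM, against 21.1 to 34.2 CPM, and the mitotic kinesin CENPE at 221, 350 and 647 CPM, against 346 to 446 CPM. In all 3 genes Rep 3 was above the bulk range. Of the S phase genes, TIPIN, which stabilises replication forks, was at 49.2, 139 and 49.7 CPM, against 68.3 to 86.1 CPM. The flap endonuclease FEN1 was at 100, 170 and 239 CPM, against 181 to 201 CPM, with Rep 3 and not Rep 2 as its highest cell.

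The regulators of G1 and of entry into S phase gave medians of 0.12, 0.27 and −0.39, and 11 of 17 were lowest in Rep 3 (all genes 34.9%). CCNE1, a cyclin of the G1/S transition, was at 26.9, 48.2 and 8.05 CPM, against 20.4 to 29.6 CPM. The inhibitor CDKN2C was at 22.8, 49.5 and 4.18 CPM, against 22.7 to 26.0 CPM, and was apart and lower in Rep 3. CCND1 went the other way, at 5.79, 2.86 and 43.1 CPM against 9.06 to 15.1 CPM, and was apart and higher in Rep 3. CCND2 was at 241, 159 and 81.5 CPM, against 180 to 210 CPM.

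Replication-dependent histone genes, whose RNAs accumulate while DNA is copied, were lowest in Rep 1. Of 42 genes, 36 (85.7%) had their lowest value there, against 33.1% of all genes, and none its highest, with medians of −0.50, 0.30 and 0.28. Their spread within the background, from −0.18 to 0.13, was wider than for most lists. Rep 2 was highest for 20 and Rep 3 for 22. HIST1H4A was at 28.8, 56.5 and 112 CPM, against 37.7 to 46.6 CPM. HIST3H2A and HIST3H2BB, in which Rep 2 stood highest, were at 56.4, 172 and 55.9 CPM and at 22.4, 133 and 38.2 CPM. Many histone genes are near-identical in sequence, so single members are less certain than the list. No phase was assigned to any cell.

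Small RNAs of the nucleolus and Cajal body guide modification of ribosomal and spliceosomal RNA, and fall into H/ACA, C/D and Cajal body classes that differed here. The median over 9 Cajal body RNAs was −1.15, 0.23 and 0.41, with −0.10 to 0.13 in the background. Under DESeq2 size factors it became −0.80 in Rep 1 and 0.05 in Rep 2. The limit of 10 CPM was applied anew there, which can change the RNAs of so short a list. The median of all genes moved by only −0.003 in Rep 1 and −0.001 in Rep 2. SCARNA5 was at 14.8, 41.8 and 31.2 CPM and SCARNA7 at 15.3, 57.8 and 33.6 CPM, against 23 to 28.2 and 22.5 to 33.9 CPM. Of 22 H/ACA small nucleolar RNAs, 16 were lowest in Rep 1 and 16 highest in Rep 3, with medians of −0.56, −0.01 and 0.52. Of 17 C/D box RNAs, 7 were lowest in Rep 1 and 6 in Rep 3, and the medians were −0.19, 0.21 and 0.33, of which those of Rep 1 and Rep 2 lay within the background range of −0.27 to 0.24. Most of these RNAs lie within introns of other genes, and their counts can include unspliced RNA of the host.

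Most stress lists had their highest median in Rep 1. Of 14 p53 targets, 8 were highest in Rep 1 (all genes 32.5%), with medians of 0.30, −0.18 and −0.12, yet the members apart were in Rep 3. GADD45A, an inhibitor of growth after DNA damage, was at 1.95, 2.24 and 17 CPM, and the kinase PLK3 at 2.05, 5.82 and 24.2 CPM, both apart and higher in Rep 3. The mitochondrial reductase FDXR was apart and lower there, at 12, 11.6 and 0.958 CPM. Hypoxia response genes were lowest in Rep 3 for 11 of 15 (all genes 34.9%), with medians of 0.23, 0.14 and −0.57. SLC2A3, a glucose transporter, was at 16.3, 9.31 and 0.192 CPM, against 4.60 to 7.86 CPM. Medians over 27 unfolded protein response and integrated stress genes were 0.21, 0.11 and −0.18, and over 19 metallothionein and oxidative stress genes 0.17, 0.04 and −0.03. The stress response factors DDIT3 and ATF3 were highest in Rep 1, at 61.3, 33.9 and 15.0 CPM and at 58.1, 19.1 and 14.0 CPM. The 22 heat shock and immediate early genes departed from this order, with medians of −0.10, −0.08 and 0.11. Of the whole list, FOS was at 0 counts, 2.24 and 15.7 CPM, FOSL1 at 3.73, 36.7 and 30.3 CPM and DUSP1 at 5.04, 13 CPM and 0 counts, so that each of these 3 had another order of the cells. The lists of apoptosis regulators and tubulins had medians of 0.30, −0.05 and −0.33 and of 0.36, −0.12 and −0.09, with BAK1, a pore-forming protein of apoptosis, at 45.4, 5.82 and 6.70 CPM.

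**Figure D3:**
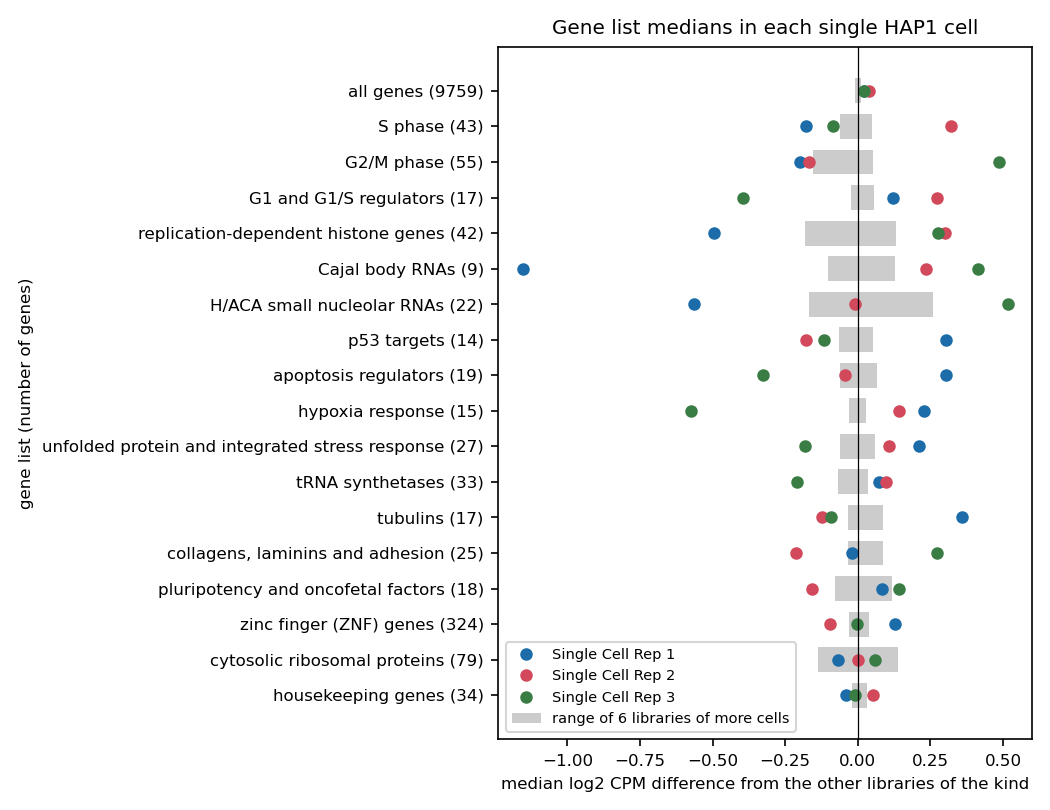
Median log2 CPM difference of each single cell from the other 2 (points, 3 colours) for 17 gene lists and all genes (rows, number of genes in brackets), with the range of the same median over the 6 libraries of 10, 100 and 1000 cells, each taken against the other 5 (grey bars). Rep 1 lies lowest for histone genes at −0.50 and Cajal body RNAs at −1.15, Rep 2 highest for S phase genes at 0.32 and Rep 3 highest for G2/M genes at 0.49, while housekeeping genes and ribosomal proteins lie near 0.

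Of 132 medians, for 44 lists with at least 5 genes in 3 cells, 87 lay outside the range of the 6 larger samples, which average over many cells. The lists with the smallest median range over the 3 cells were those of core functions. It was 0.32 for glycolysis, 0.39 for cytosolic ribosomal proteins and 0.40 for housekeeping genes, against 0.77 over all 9759 genes. The range also fell with the level of the gene, to 0.46 at 100 to 500 CPM and 0.28 at 500 CPM or more. These lists were not compared with genes of like level. None of the 34 measured housekeeping genes was apart, with medians of −0.04, 0.05 and −0.01. None of the 79 cytosolic ribosomal protein genes was apart either, with medians of −0.07, 0.00 and 0.06. Over all 9759 genes 3.72% were apart in a cell, none of them at a background mean of 100 CPM or more, and several other lists also had no gene apart. Among 1859 genes at 100 CPM or more in all 3 cells, the median SD of log2 CPM was 0.20 and 320 genes (17.2%) had an SD under 0.1. The transcription factor SP1 was the steadiest, at 283, 282 and 286 CPM, followed by the nuclear pore protein RANBP2 at 718, 711 and 705 CPM and the chaperone HYOU1 at 235, 234 and 231 CPM. SP1 nevertheless lay above its background of 221 to 243 CPM in all 3 cells. NPEPPS, DDX23, ARPC3, FSCN1, HNRNPK, SERBP1 and FBXW2 completed the 10 steadiest genes.

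ACTB, TBP and TBX5 were the RNA targets, and MYC the DNA target, of the study's PCR assays. ACTB, which encodes beta-actin, was at 4510, 4810 and 5010 CPM, within 4480 to 5010 CPM in the background. TBP, the TATA-binding protein, was at 44.5, 21.8 and 42.2 CPM, and Rep 2 lay below the background of 41.1 to 47.4 CPM. TBX5 was at 43.7, 55.9 and 59.0 CPM, against 41.4 to 52.7 CPM. MYC was at 710, 764 and 1400 CPM, and Rep 3 lay above the background of 753 to 984 CPM. BCR, the partner gene of the fusion, was at 23.9, 21.9 and 4.56 CPM, against 20.5 to 25.9 CPM, and its counts do not separate the fusion from the normal transcript.

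Zinc finger genes of chromosome 19 were apart and lower in Rep 2 at a higher share than other genes. These genes encode DNA-binding repressors, many of them with a KRAB domain, and lie in tandem clusters. Of the 144 chosen on the larger samples, 9 (6.25%) were apart and lower in Rep 2, against 0.84% of all 9759 genes, 1 of 180 ZNF genes on other chromosomes (0.556%) and 6 of 495 other genes of chromosome 19 (1.21%). In Rep 3, 5 of the 144 (3.47%) were apart and lower, against 1.76% of all, and in Rep 1 none. These shares were not tested. Among members, some of which, such as ZNF320 and ZNF99, reached 10 CPM only in Rep 1 and Rep 3, 27 of 192 ZNF genes of chromosome 19 were apart and lower in Rep 2 (14.1%), where the share of all members was 2.35%. Over the 144 genes the medians were 0.14, −0.23 and 0.09, with −0.05 to 0.06 in the background.

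ZNF208 was at 105, 16 and 284 CPM in Rep 1, Rep 2 and Rep 3, with 30.3 to 90.8 CPM in the background. ZNF676 was at 82.0, 5.90 and 94.6 CPM, against 12.9 to 54.7 CPM, and ZNF729 at 54.3, 10.6 and 127 CPM, against 16.4 to 37.9 CPM. The largest separations were those of ZNF320, at 40.5, 0.0980 and 39.1 CPM against 3.39 to 5.4 CPM, ZNF728, at 31.7, 0.0588 and 26.1 CPM against 5.98 to 13.6 CPM, and ZNF99, at 13.7, 0.0588 and 49.98 CPM against 4.83 to 9.81 CPM. Of the 27 genes, 24 lay below all 6 larger samples in Rep 2 and 23 lay above all 6 in both other cells. The choice of the genes favours this. Over all 261 members apart and lower in Rep 2, the same counts were 249 and 154. Members of these clusters are similar in sequence, and reads that map to several of them were not counted. ZNF792 was instead high in Rep 1 alone, at 30.2, 0.0980 and 0.766 CPM.

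**Figure D4:**
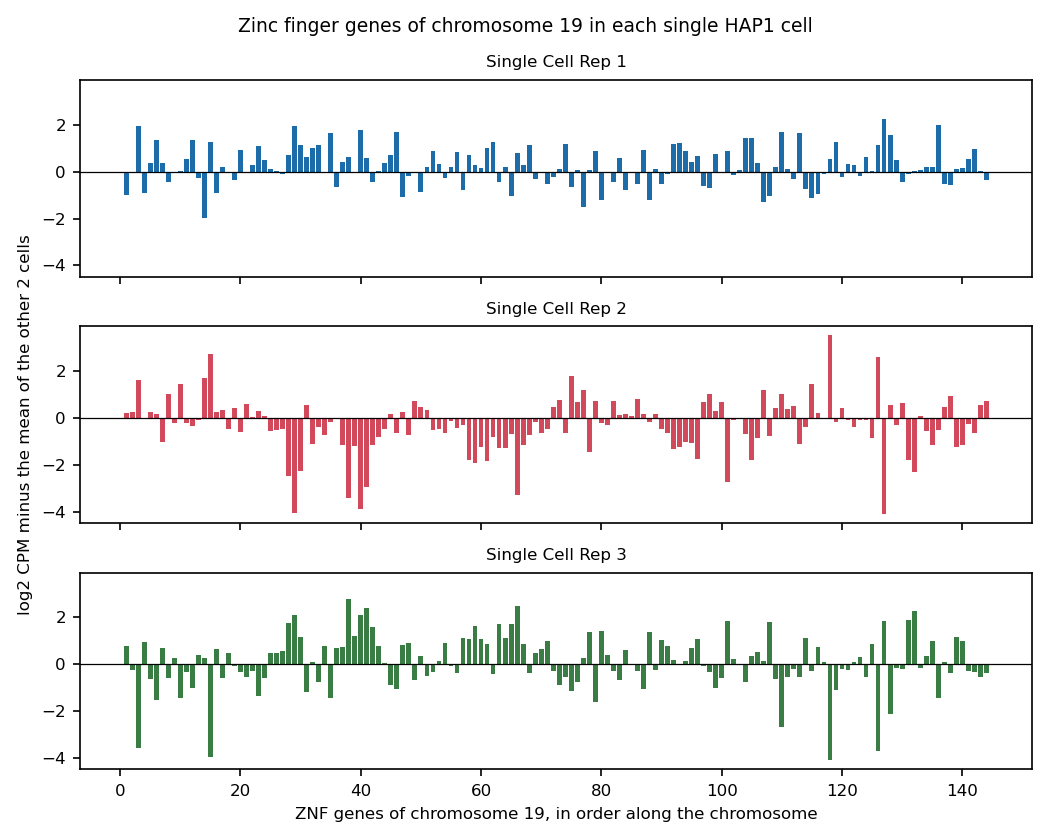
Log2 CPM minus the mean of the other 2 cells (bars) for the 144 ZNF genes of chromosome 19 with a mean of at least 10 CPM in the larger samples, in their order along the chromosome (horizontal axis), for each single cell (panels). Runs of negative bars are seen in Rep 2, where the median is −0.23, and since the 3 bars of a gene sum to 0, opposite bars in the other cells follow from the centring.

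The larger samples, which played no part in this choice, also differed at these genes. Against the mean of the other 5, the median of the 27 genes was 0.43 and 0.20 in the 10-cell libraries, −0.71 and −0.11 in the 100-cell libraries and 0.30 and 0.12 in the 1000-cell libraries. 100 Cell Rep 1 held the lowest of the 6 values for 17 of the 27 (63%), against 2480 of all members (22.4%) and 46 of the other 165 ZNF members of chromosome 19 (27.9%). This library had at least 1 count for 16474 genes, against 18368 in 100 Cell Rep 2 and 16283 and 16552 in the 10-cell libraries. Whether this bears on the shift was not tested. For the 234 other genes apart and lower in Rep 2, the median of 100 Cell Rep 1 was −0.17, and it was lowest for 92. A like shift was seen for the 143 genes apart and higher in Rep 3, with a median of −0.16 and the lowest value for 53. These 143 are not a separate set, since MUC4, FAR2P1 and CCDC144NL-AS1 among them were also apart and lower in Rep 2. As background, over all members the median of 100 Cell Rep 1 was 0.00. Among those 234 were SLC12A3, ACTL8 at 96.2, 18.6 and 181 CPM against 16.5 to 60.9 CPM, PRAME, a tumour and germline antigen, at 62.6, 10.1 and 90.1 CPM against 13.4 to 39.4 CPM, and KLF4, a pluripotency transcription factor, at 87.6, 6.55 and 143 CPM against 23.2 to 48.1 CPM.

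Along the chromosomes, 232 consecutive windows of 40 genes were compared. Most window medians of a single cell, 161 to 165 of 232, lay outside the range of the 6 larger samples, so only the 5 furthest from 0 are given, chosen after their values were seen. The lowest was in Rep 2 on chr19:35868499-39384897, from APLP1 to SAMD4B, where the medians were 0.30, −0.49 and 0.17 and 16 of the 40 genes were ZNF genes. In the window from C16orf87 to RSPRY1 on chr16:46802047-57240475 they were 0.41, −0.14 and −0.08. In the window from ARAF to PHF8 on chrX:47561100-54045136 they were 0.41, −0.36 and −0.11. In the window from RAC1 to OSBPL3 on chr7:6374495-24980212 they were −0.04, 0.40 and −0.10, and in that from HIST1H3D to PPP1R11 on chr6:26196784-30070331, which holds histone genes, −0.40, 0.29 and 0.22. No window median of a larger sample was beyond −0.15 or 0.16. Over whole chromosomes the medians were smaller, the largest being −0.14 in Rep 1 and 0.14 in Rep 2 on chromosome 11 and 0.17 in Rep 1 on chromosome 16.

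At higher levels, 5742 genes reached 50 CPM in at least 1 cell, of which 34 were apart and lower in Rep 2 and 26 in Rep 3, but 2 in Rep 1. Those higher numbered 3 in Rep 1, 1 in Rep 2 and 7 in Rep 3. The 3 in Rep 1, named after their values were seen as are the other genes of this paragraph, were ADAMTSL1, ANXA1 and LMAN2L, with the membrane-binding protein annexin A1 (ANXA1) at 65.9, 4.2 and 8.74 CPM against 16.7 to 28.3 CPM. The lower ones in Rep 1 were PCIF1 at 6.22, 29.0 and 61.2 CPM and NDUFC1, a subunit of respiratory complex I, at 10.5, 43.2 and 51.4 CPM. The 1 in Rep 2 was UCK1, a uridine-cytidine kinase, at 11.7, 53.3 and 6.82 CPM. MUC4, a membrane mucin, was apart in 2 cells, at 70.2, 17.5 and 291 CPM against 9.14 to 29.7 CPM. Among the 26 lower in Rep 3 were RARA, the retinoic acid receptor alpha, at 35.7, 61.6 and 6.97 CPM and the ubiquitin ligase SMURF2 at 51.0, 59.0 and 11.5 CPM.

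Clustered protocadherins, cell adhesion proteins that neurons express in different combinations, were present in different sets in each cell. Of 57 gene models on chromosome 5, 28, 17 and 26 reached 1 CPM in Rep 1, Rep 2 and Rep 3, and 29 to 39 did so in the larger samples. All 3 cells reached that level for 7 of them, exactly 2 cells for 18, exactly 1 cell for 14 and none for 18. In the 6 larger samples together, 23 of the 57 reached 1 CPM in every one. The same count was not made for other genes of like level, so the different sets are not shown to be particular to protocadherins. The CPM summed over the 57 were 228, 76.9 and 251, against 110 to 156 in the background. Of the 21 protocadherin members, clustered or not, 4 were apart and higher in Rep 1 (19%, all members 0.992%) and 3 in Rep 3 (14.3%, all members 1.29%). Those apart and lower numbered 7 in Rep 2 (33.3%, all members 2.35%) and 4 in Rep 3 (19%, all members 3.18%). Of the 21, 14 had entered through a high value in a single cell, and none of the 7 chosen on the larger samples was apart.

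PCDHA3 was at 15.4, 0.275 and 2.51 CPM and PCDHA10 at 11.3, 1.59 and 0.211 CPM, both apart and higher in Rep 1. PCDHA4 was instead seen in Rep 3 alone, at 14.7 CPM with 0 counts in both others. PCDHGA5 was at 13.2, 0 and 0.421 CPM and PCDHGA4 at 1.18, 0.0392 and 15.3 CPM. PCDHB3 was at 13.4, 0.216 and 29.8 CPM, against 4.66 to 7.13 CPM. The larger samples held PCDHA3, PCDHA4 and PCDHA10 together, at 3.31 to 5.41, 0.812 to 2.66 and 0.851 to 2.05 CPM. The genes of the PCDHA cluster share 3′ exons, as do those of the PCDHG cluster. Reads there overlap several genes and were not counted, so the values of these genes come mostly from the variable exons.

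**Figure D5:**
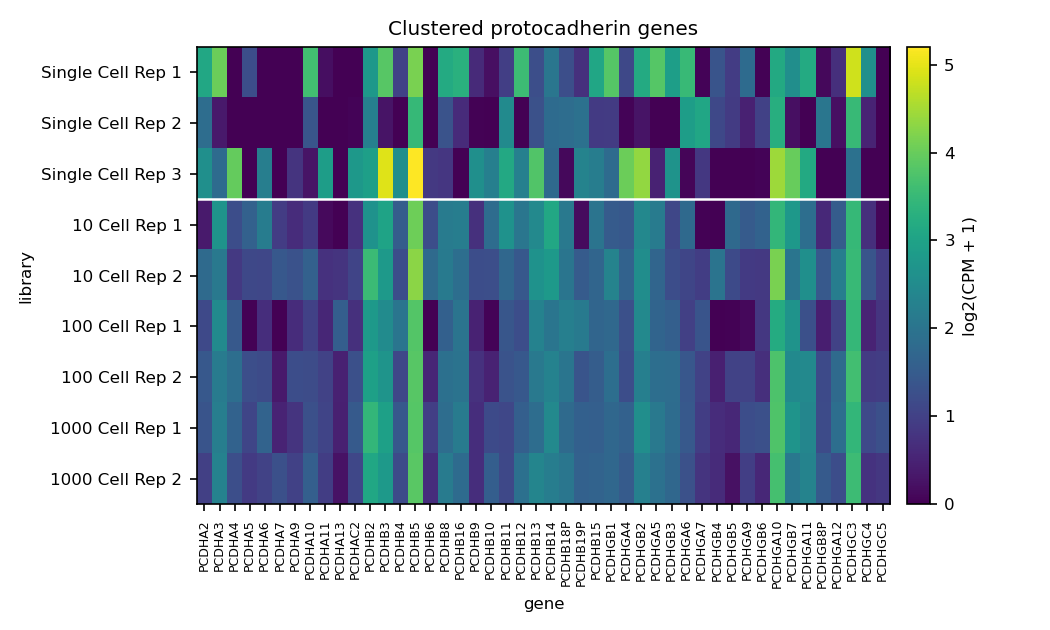
Heat map of log2(CPM + 1) for the clustered protocadherin genes that reached 1 CPM in any library (columns) in the 9 libraries (rows). Each single cell shows a different set of bright columns, such as PCDHA3 and PCDHA10 in Rep 1 and PCDHA4 in Rep 3, while the 6 larger samples resemble each other and hold these genes at 0.812 to 5.41 CPM.

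Other developmental genes gave 1 or a few genes per cell. Among those chosen on the larger samples, apart were 0 of 11 HOX genes, 2 of 18 pluripotency and oncofetal genes and 2 of 7 imprinted genes. The counts that follow are over members. For comparison, 363 of all 9759 genes (3.72%) and 1005 of all 11087 members (9.06%) were apart in at least 1 cell. None of these counts was tested, and they do not set the lists apart from other genes. Of 21 HOX members, HOXC5 was apart and higher in Rep 1, and HOXC4, at 1.62, 0 and 10.9 CPM, and HOXA5, at 1.06, 2.78 and 20.8 CPM, were so in Rep 3. HOXA6 was apart and lower in Rep 1, at 0.232, 11.1 and 3.20 CPM, and HOXB9, at 21.7, 2.61 and 23.7 CPM, and again HOXC4 were lower in Rep 2. Of 21 pluripotency and oncofetal members, LIN28A and KLF2, at 1.00, 0.686 and 23.4 CPM, were higher in Rep 3, DPPA2, at 1.43, 11.1 and 0.575 CPM, was higher in Rep 2, and KLF4 and ZFP42, at 20.7, 0.0392 and 13.2 CPM, were lower in Rep 2. Of 9 imprinted members, expressed from 1 parental copy, MEST was apart in 2 cells, at 1.27, 12.3 and 0.0575 CPM, as was PLAGL1, at 1.74, 0.0784 and 17 CPM. BLCAP was at 43.6, 4.24 and 47.0 CPM and NAP1L5 at 4.62, 29.7 and 7.22 CPM.

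Most markers of other cell types had no count in any of the 3 cells. The 4 endothelial markers PECAM1, CDH5, VWF and KDR had 0 counts in each. Of 8 fibroblast markers, 6 had 0 counts in all 3, including COL1A2, COL3A1 and PDGFRB, and the list summed to 7.59, 14.4 and 15.3 CPM, against 10.2 to 18.2 CPM in the background. COL1A1 was at 7.59, 3.76 and 15.3 CPM and THY1 at 0 counts, 10.6 CPM and 0 counts. Of 8 plasma cell markers 6 were at 0 counts. The summed 61.9, 44.4 and 42.6 CPM came almost wholly from SDC1, at 61.9, 43.2 and 42.6 CPM. The background sum was 46.8 to 54.6 CPM, with Rep 1 above it and Rep 2 and Rep 3 below it. Of 12 myeloid and erythroid markers, 8 had 0 counts and 4 had a count in a single cell, namely SPI1, ITGAM, HBA1 and EPOR. The sums were 13.3, 1.78 and 15.8 CPM, against 5.08 to 9.0 CPM in the background. Rep 1 and Rep 3 thus lay above that range and Rep 2 below it. Only 1 of the 12 reached 10 CPM in a single cell, and it was apart and lower in Rep 2. A single gene can therefore weigh heavily in these sums. Of 6 keratinocyte markers, 5 had 0 counts, and the sums of 4.33, 0.392 and 1.74 CPM lay below the 6.72 to 12.6 CPM of the background. Among the markers at 0 in every single cell were PTPRC and CD14 of blood cells and KRT5 and KRT14 of keratinocytes.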

How the data were processed

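The deposited values are whole read counts per gene for 9 libraries, 3 of single HAP1 cells and 2 each of 10, 100 and 1000 cells. According to the submitters' processing notes and the file headers, the authors used Trim Galore 0.6.7 for trimming, HISAT2 2.2.1 for alignment to hg38 and featureCounts of Subread 2.0.6 for read counts over exons, strand setting 2, leaving out reads that map to several places or overlap several genes. The annotation release is not given in the sources used here, and no mitochondrial gene is among the 26485 models.

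From these counts, TMM library sizes over 9 libraries were computed with edgeR 4.0.16 in R 4.3.3, and CPM and log2 CPM (prior count 2) in Python 3.11.15. A gene apart in a cell differed from each other cell by at least 2 on the log2 scale. Totals of 42842970 to 61645865 counts put 1 count at 0.0161 to 0.0231 CPM. Each cell is 1 library, so no difference between cells was tested. The computation was checked on simulated data. The labels do not say that the replicates came from separate cultures.

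The members and the 50 gene lists and families were chosen with earlier results of these data known. Named were the 10 genes per cell and direction with the largest smaller difference on log2(CPM + 1), up to 4 members per list with the largest range, the 10 steadiest genes at 100 CPM or more in each cell, the qPCR targets and genes of outlying windows, except where the text says that a gene was chosen later, and except 1 gene of Rep 2 that is not reported here. Alternatives covered library sizes, prior count, difference, filter, depth and leaving out a cell.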

Additional observations from a re-analysis of the deposited data

How the results depend on the processing

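No paired analysis was possible because no test was made and the replicate numbers only name libraries. With total counts or DESeq2 size factors as library sizes, and after thinning to 42842970 counts, every count of genes stayed within 1.5 times its value. Of 1130 calls of a gene apart in a cell and direction, 1105, 1128 and 1098 were shared. Of 132 list medians, 10 changed sign with total counts and 2 with DESeq2 size factors, none of them above 0.04 in size, and the median of all genes moved by at most 0.04. With a prior count of 50, genes apart and lower became 103 in Rep 1 and 172 in Rep 2, which weights low values less.

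The sizes of the counts depend on the limits set. In the order Rep 1 higher, Rep 1 lower, Rep 2 higher, Rep 2 lower, Rep 3 higher and Rep 3 lower, genes apart numbered 481, 575, 415, 688, 584 and 909 at a difference of 1, and 43, 85, 46, 156, 60 and 187 at a difference of 3. They numbered 243, 298, 217, 442, 273 and 584 with a filter of 5 CPM, 3, 2, 1, 34, 7 and 26 at 50 CPM, and 918, 489, 855, 672, 730 and 939 with no filter but at least 1 count in a single cell, where more were higher than lower in Rep 1 and Rep 2. Genes differing between Rep 1 and Rep 2, Rep 1 and Rep 3, and Rep 2 and Rep 3 numbered 1630, 2007 and 1962 at a difference of 1, 79, 133 and 137 at 3, 627, 846 and 904 with the 5 CPM filter, 5, 13 and 22 at 50 CPM, and 3092, 3261 and 3386 with no filter. The median range was 0.52 at 50 CPM and 1.14 with no filter. Genes on in a cell and off in another numbered 808 when on meant 5 CPM, 4 at 50 CPM and 156 when off meant 0 counts, and with no filter this count was not run.

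Leaving out a single cell leaves a difference between 2 cells. Genes apart then ranged from 357 to 495 (Rep 1 higher), 288 to 368 (Rep 1 lower), 288 to 474 (Rep 2 higher), 357 to 461 (Rep 2 lower), 368 to 461 (Rep 3 higher) and 474 to 495 (Rep 3 lower), the median range from 0.43 to 0.47, and the genes on and off from 86 to 154. A value of 0 in a single cell was taken as 3 counts, or up to 0.0588 CPM. This covers counting only and not losses in the isolation or amplification.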
